A study of Mus musculus with 3 samples.

Results

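Transcripts of 8 genes of the mitochondrial cell death pathway were followed across 3 hippocampal RNA-seq libraries. The genes are Bcl2, Bcl2l1, Mcl1, Bax, Bcl2l11, Bad, Bid and Casp6, found by gene name among the 54532 genes of the deposited table, and each name matched 1 row. The libraries came from mice aged 10 months on a C57BL/6 background. One was WT, one was PS19 and one was PS19 Zbp1+- (written PS19 Zbp1+/- below). PS19 mice carry a human tau transgene under the mouse Prnp promoter, so both PS19 libraries share the transgene, and the last is labelled as also lacking 1 of its Zbp1 alleles. Zbp1 encodes a sensor of Z-form nucleic acids that can start programmed cell death. The number of animals behind each library and their sex are not given in the labels. With 1 library per genotype there was no replicate check and no test of the genotypes, and each interval below covers counting error only. The libraries held 16746085, 16400328 and 17109734 reads assigned to genes in WT, PS19 and PS19 Zbp1+/-, and all values are given in that order.

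The Bcl2 family decides whether the outer mitochondrial membrane stays closed. Survival proteins (Bcl-2 from Bcl2, Bcl-xL from Bcl2l1, Mcl-1 from Mcl1) hold the effector Bax in check, and BH3-only proteins (Bim from Bcl2l11, Bad, Bid) release that brake or activate Bax directly. When Bax opens the membrane, cytochrome c leaves the mitochondria and caspases are activated, among them caspase-6, an executioner that cuts lamins and has been studied in axon degeneration and as a protease of tau. Adult neurons rely largely on Bcl-xL and Mcl-1. Much of the control of these proteins is exerted after transcription, by phosphorylation, cleavage and turnover, which RNA levels do not show.

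Promoter stretches are shown for Bcl2l11 and Mcl1, the members with the largest differences between PS19 and WT (as a read ratio and on the log2 scale below), and for the effector Bax, which was not higher in PS19. RefSeq windows (GRCm38.p6) were found for 8 of 8 genes, 12 windows in all, and the 250 bases before each start are used. Capitals mark GGGCGG (the GC box), GTAAACA (a forkhead box) and CACGTG (the E-box), each searched on both strands.
Bcl2l11, chr2:128125788-128126037, plus strand: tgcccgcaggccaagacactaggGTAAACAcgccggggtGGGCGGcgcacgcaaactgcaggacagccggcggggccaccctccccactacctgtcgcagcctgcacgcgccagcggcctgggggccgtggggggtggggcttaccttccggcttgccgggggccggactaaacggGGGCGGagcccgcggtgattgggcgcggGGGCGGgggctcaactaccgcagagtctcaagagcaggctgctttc
Mcl1, chr3:95658471-95658720, plus strand: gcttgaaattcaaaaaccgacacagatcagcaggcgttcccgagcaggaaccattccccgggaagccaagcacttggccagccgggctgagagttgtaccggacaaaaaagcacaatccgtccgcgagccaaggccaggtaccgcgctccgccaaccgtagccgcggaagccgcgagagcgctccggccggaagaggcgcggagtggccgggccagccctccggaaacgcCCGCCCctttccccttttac
Bax, chr7:45466899-45467148, minus strand: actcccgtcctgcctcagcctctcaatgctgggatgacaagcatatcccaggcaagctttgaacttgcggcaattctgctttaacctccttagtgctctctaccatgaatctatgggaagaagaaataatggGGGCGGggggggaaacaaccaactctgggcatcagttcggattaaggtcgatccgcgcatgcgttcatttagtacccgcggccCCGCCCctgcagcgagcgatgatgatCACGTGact
The GC box letters were found in 8 of the 12 windows, which belong to 7 of the 8 genes (none of the 3 Bcl2l1 windows), against 32.7% of all 32851 windows of that length. GTAAACA occurred once, beginning 227 bases before the Bcl2l11 start, and is present in 3.17% of all windows. CACGTG occurred once, beginning 9 bases before the Bax start, and is present in 6.02%. The letters of the interferon response element core (2.98% of all windows), of a STAT site (TTCNNNGAA, 7.02%) and of an AP-1 site (TGACTCA, 4.46%) were in none of the 12 windows. A match of letters is a description and shows no binding.

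Zbp1 had 5, 91 and 0 reads. The library labelled PS19 Zbp1+/- thus held no Zbp1 read, which by a limit of 3 reads allows an FPKM of up to 0.0537. These reads do not show the allele that its label leaves in place, so the genotype name below is the label's. Xist had 11062, 13350 and 0 reads, and the Y-linked Ddx3y had 0, 0 and 711, so PS19 Zbp1+/- differs from both others in sex-linked transcripts too. All 8 hippocampal neuron markers were detected in each library, with summed FPKM of 422, 345 and 632. The highest sum was carried by Slc17a7 (206, 172 and 371) and Fibcd1 (37.0, 27.0 and 111), while 3 of the 8 (Prox1, Zbtb20 and Spink8) were lowest in PS19 Zbp1+/-. Summed astrocyte markers were 208, 953 and 218, with PS19 highest for 5 of 5 genes. Oligodendrocyte markers summed to 651, 1179 and 411 (PS19 highest for 5 of 5) and microglia markers to 50.8, 120 and 61.2 (PS19 highest for 5 of 6). Choroid plexus markers summed to 3377, 2142 and 23.0, so these transcripts were scarce in PS19 Zbp1+/-. Thalamus and striatum markers summed to 38.9, 54.4 and 19.9, with Tcf7l2 (0.988, 3.85 and 0.463) and Prkcd (8.15, 23.1 and 1.69) highest in PS19 and the other 3 highest in WT. Red cell markers summed to 18.7, 15.7 and 3.20 and interneuron markers to 422, 321 and 360. Among the interneuron markers Sst (315, 201 and 257) was lowest in PS19, and the other 3 (Gad1, Gad2 and Pvalb) were highest there. Endothelial markers summed to 30.6, 31.0 and 48.1, where Cldn5 (22.4, 19.1 and 38.1) was highest in PS19 Zbp1+/- and the other 3 in PS19. Lymphocyte markers were near 0, at 0.422, 0.565 and 0.520, with Cd3e at 0 reads in WT and Cd3e, Cd3g and Cd8a at 0 in PS19 Zbp1+/-. In whole tissue, fewer cells of a type and less RNA per cell cannot be told apart. The part of these marker differences in the results below was not tested.

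The 8 genes spanned a wide range of FPKM, which counts fragments per kilobase of a gene and corrects for library size. The sizes implied by the deposited values are not the totals of assigned reads. For PS19 Zbp1+/- the implied size was 15826984, against 17109734 assigned reads. Mcl1, Bcl2l1 and Bax were the most abundant, Bad followed, Bid and Bcl2 were lower, and Casp6 and Bcl2l11 were near an FPKM of 1. Bcl2l1 and Mcl1 were level within counting error in WT, Mcl1 was the higher in PS19, and Bcl2l1 was the higher in PS19 Zbp1+/-. Bid lay above Bcl2 in WT and PS19, while their intervals overlapped in PS19 Zbp1+/-. Casp6 and Bcl2l11 had overlapping intervals in every library. The Casp6 level is understated relative to the others if its reads come from the coding transcript, since the table's gene length of 5584 bases is 3.84 times its longest protein-coding transcript in GENCODE M21 (1456 bases). For the other 7 genes that factor was between 1 (Mcl1) and 1.79 (Bcl2l1).

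**Figure D1:**
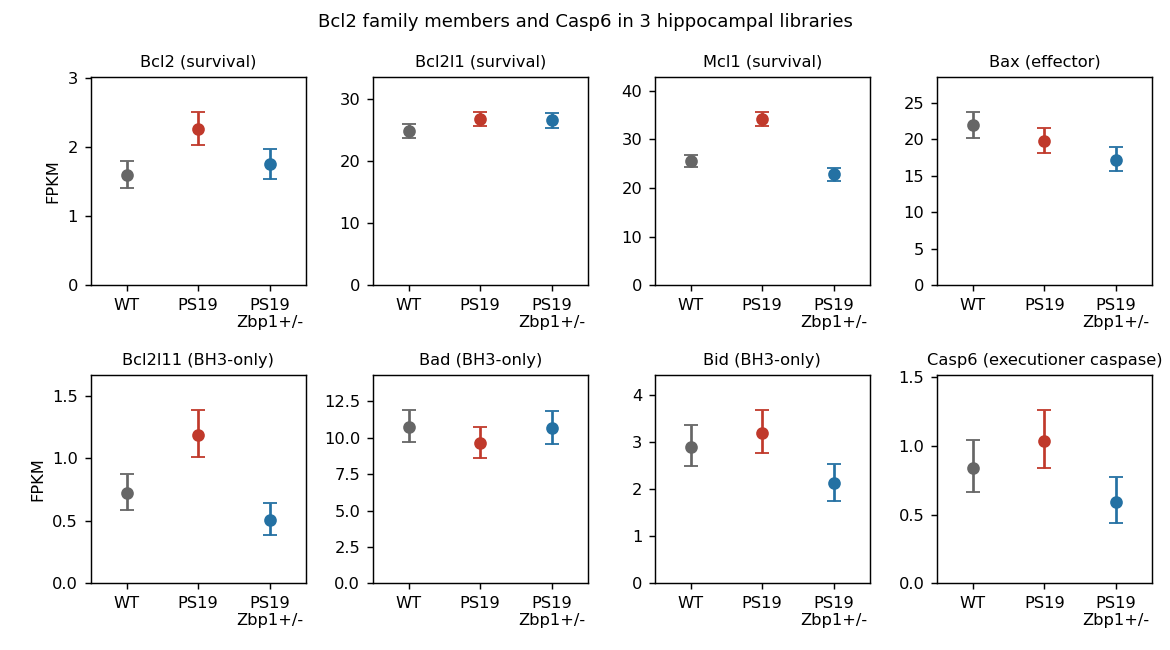
FPKM of each of the 8 genes (vertical axis, from 0) in the WT, PS19 and PS19 Zbp1+/- libraries, as points with exact Poisson 95% intervals that cover counting error only. PS19 is the highest point for 6 genes, and WT is the highest for Bax and Bad.

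Of the survival genes, Mcl1 had the widest range in FPKM units and Bcl2l1 the narrowest as a ratio of highest to lowest. Mcl1 (ENSMUSG00000038612; GRCm38 chromosome 3, 95658788 to 95663176, plus strand) encodes a short-lived protein that sequesters Bim and Bak. It had FPKM values of 25.5, 34.2 and 22.8, from 1505, 2020 and 1233 reads. The PS19 interval (32.7 to 35.7) lay above those of WT (24.2 to 26.8) and PS19 Zbp1+/- (21.5 to 24.1). Its ratio of reads per implied library size was 1.34 for PS19 over WT (exact Clopper-Pearson 95% interval 1.25 to 1.43). PS19 Zbp1+/- stood at 0.667 times PS19 (0.621 to 0.716). Between PS19 Zbp1+/- and WT the ratio was 0.893 (0.828 to 0.964). These ratios compare libraries, not genotypes.

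Bcl2 (ENSMUSG00000057329; chromosome 1, 106538178 to 106714274, minus strand), the founding member of the family, was much less abundant. Its FPKM was 1.60 in WT (252 reads), 2.27 in PS19 (359 reads) and 1.75 in PS19 Zbp1+/- (254 reads). PS19 stood above both others, which had overlapping intervals. The read ratio was 1.42 for PS19 over WT (1.21 to 1.68), 0.773 for PS19 Zbp1+/- over PS19 (0.656 to 0.910) and 1.10 for PS19 Zbp1+/- over WT (0.919 to 1.31).

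Bcl2l1 (ENSMUSG00000007659; chromosome 2, 152780668 to 152831728, minus strand), which encodes the main survival protein of mature neurons, had the narrowest range of the 8 genes as a ratio of highest to lowest FPKM. Its FPKM values were 24.7, 26.7 and 26.5, from 1957, 2119 and 1923 reads, and its highest level was 1.08 times its lowest. Scaled to TPM or by total reads, its largest difference between libraries on the log2 scale (-0.30 and -0.19) was wider than that of Bad (-0.17 and -0.15). Read ratios were 1.08 for PS19 over WT (1.02 to 1.15), 0.991 for PS19 Zbp1+/- over PS19 (0.931 to 1.06) and 1.07 for PS19 Zbp1+/- over WT (1.005 to 1.14). The last ratio, like that of Bcl2, turned below 1 when libraries were scaled by total reads or to TPM. The Bcl2l1 locus makes a long survival form and a short death-promoting form, and values per gene do not separate them.

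Bax (ENSMUSG00000003873; chromosome 7, 45461697 to 45466898, minus strand), the pore-forming effector and a known p53 target, was highest in WT. It had FPKM values of 21.9, 19.8 and 17.2, from 596, 539 and 429 reads. WT and PS19 had overlapping intervals, as had PS19 and PS19 Zbp1+/-, whereas WT (20.2 to 23.8) and PS19 Zbp1+/- (15.6 to 18.9) did not. The corresponding read ratios were 0.903 for PS19 over WT (0.802 to 1.02), 0.869 for PS19 Zbp1+/- over PS19 (0.764 to 0.989) and 0.785 for PS19 Zbp1+/- over WT (0.692 to 0.890). The summed FPKM of the 3 survival genes was 51.9, 63.2 and 51.0. Divided by Bax it gave 2.37 in WT (95% counting interval 2.17 to 2.58), 3.19 in PS19 (2.92 to 3.49) and 2.97 in PS19 Zbp1+/- (2.68 to 3.28). Both PS19 libraries had the higher ratio. It leaves out other survival and effector genes, among them Bcl2l2, Bak1 and Bok, given below. The survival sum was highest in PS19 and Bax lowest in PS19 Zbp1+/-.

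Among the BH3-only genes, Bcl2l11 had the widest spread of all 8 genes as a ratio of highest to lowest FPKM (2.36). Bcl2l11 (ENSMUSG00000027381; chromosome 2, 128126038 to 128162547, plus strand) encodes Bim, which binds every survival protein of the family and is a known forkhead target. It had FPKM values of 0.722, 1.19 and 0.504, from 100, 165 and 64 reads. PS19 stood above both others, with an interval of 1.01 to 1.39, and the intervals of WT and PS19 Zbp1+/- overlapped. The PS19 library was at 1.65 times WT (1.28 to 2.13), and PS19 Zbp1+/- was at 0.424 times PS19 (0.312 to 0.569) and 0.698 times WT (0.502 to 0.964). This was the only one of the 24 member ratios past 2-fold, and it lay in the depth range where PS19 Zbp1+/- was often low. Of 4593 tested protein-coding genes with 50 to 400 reads in PS19, 15.8% had a ratio of PS19 Zbp1+/- to PS19 of 0.5 or less, against 9.72% of all genes tested.

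Bid (ENSMUSG00000004446; chromosome 6, 120891930 to 120916853, minus strand) links death receptors to mitochondria, since caspase-8 cuts it into its active form. Its FPKM values were 2.89, 3.19 and 2.12, from 177, 196 and 119 reads. WT and PS19 did not differ beyond counting error, with a ratio of 1.11 (0.897 to 1.36). PS19 Zbp1+/- was at 0.663 times PS19 (0.524 to 0.837) and at 0.733 times WT (0.576 to 0.930). The Bid exons overlap those of Bcl2l13 on the opposite strand over 628 bases (17.7% of the Bid exons), where reads cannot be told apart without strand.

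Bad (ENSMUSG00000024959; chromosome 19, 6941861 to 6951898, plus strand), a BH3-only protein held inactive by survival kinases, was level. It had FPKM values of 10.7, 9.63 and 10.6, from 372, 334 and 338 reads, with overlapping intervals throughout. Its ratios were 0.896 for PS19 over WT (0.771 to 1.04), 1.11 for PS19 Zbp1+/- over PS19 (0.947 to 1.29) and 0.990 for PS19 Zbp1+/- over WT (0.852 to 1.15). The second of these turned below 1 when libraries were scaled by total reads or to TPM. In GENCODE M21, Bad shares 524 exonic bases with Gpr137 on the opposite strand, which had 1846, 1425 and 2130 reads. The deposited gene length of Bad is 2007 bases, against 2558 exonic bases in that annotation. The counted gene may therefore not hold the shared bases.

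Casp6 (ENSMUSG00000027997; chromosome 3, 129901425 to 129914103, plus strand), the executioner caspase, was weakly expressed. It had FPKM values of 0.841, 1.04 and 0.588, from 81, 100 and 52 reads. WT and PS19 overlapped, and PS19 Zbp1+/- (0.439 to 0.772) lay below PS19 (0.843 to 1.26). The ratio was 1.23 for PS19 over WT (0.910 to 1.67), 0.568 for PS19 Zbp1+/- over PS19 (0.398 to 0.802) and 0.700 for PS19 Zbp1+/- over WT (0.484 to 1.004).

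**Figure D2:**
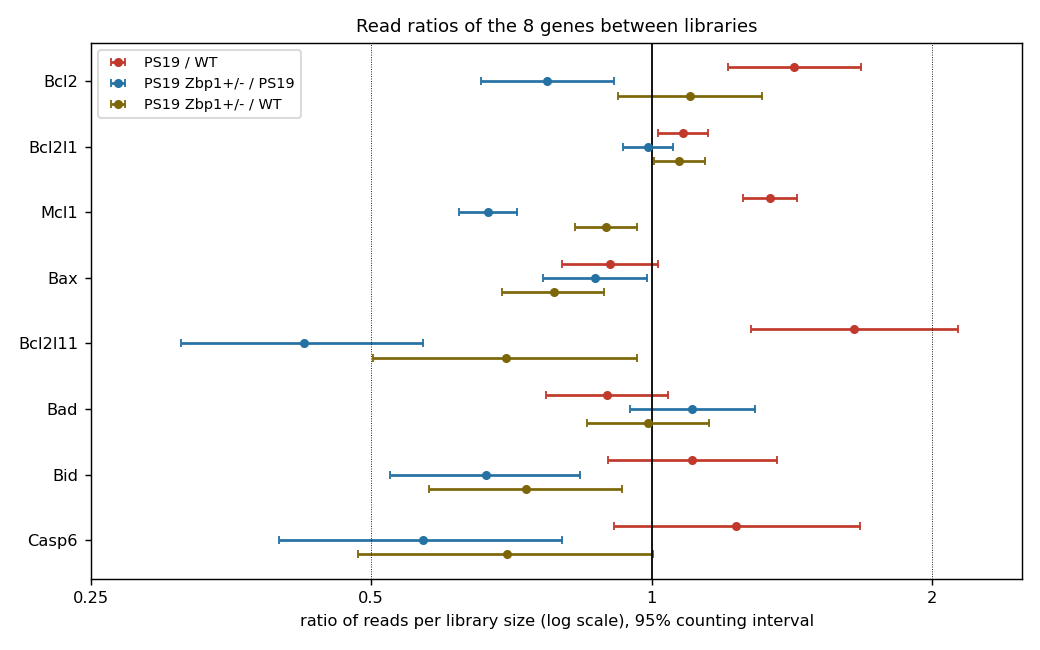
Ratios of reads per implied library size (horizontal log axis) for the 8 genes in 3 comparisons, with exact 95% counting intervals. The solid line marks 1 and the dotted lines mark 0.5 and 2. Only the PS19 Zbp1+/- over PS19 ratio of Bcl2l11 (0.424) lies past a dotted line.

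Between PS19 and WT, the question was whether the tau model changes the RNA of this pathway. None of the 8 genes differed by 1 unit or more of log2(FPKM + 1), that is 2-fold on a scale which understates weakly expressed genes. Among the 12703 protein-coding genes that reached an FPKM of 1 in PS19 or WT, 2.20% were that much higher in PS19 and 0.291% that much lower. The largest member differences were those of Mcl1 (0.41), Bcl2l11 (0.35) and Bcl2 (0.33), and 10.9%, 13.6% and 14.3% of all genes tested were at least as far above 0. Bad and Bax were lowest, at -0.14 each, and 6 genes were above 0. The median of the 8 was 0.13, against -0.03 over all genes tested. Among genes with a mean FPKM of at least 5 the median turned to -0.02 for the 4 members left (Bcl2l1, Mcl1, Bax and Bad), against -0.09 over all such genes. By counting error alone, the ratio interval lay above 1 for 4 of the 8 genes, against 28.3% of genes tested. These were Bcl2, Bcl2l1, Mcl1 and Bcl2l11. The interval lay below 1 for 0 members, against 32.7%. Bcl2l11 and Casp6 reached an FPKM of 1 in PS19 alone, so the filter set their direction here. Both are also among the 6 genes above 0 and in the median of the 8. Without them, the intervals above 1 were those of Bcl2, Bcl2l1 and Mcl1. No member ratio reached 2 or 0.5, which 4.57% and 0.960% of genes tested did.

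Between PS19 Zbp1+/- and PS19, which by label differ in 1 Zbp1 allele, 7 of the 8 genes were lower. These libraries also differ in sex-linked transcripts and choroid plexus markers, as given above. With 1 library each, these differences cannot be told apart from that of the allele. The PS19 Zbp1+/- library also stood apart at low counts, with reads in 21408 genes against 25397 in PS19 and 24741 in WT, and with 882 genes at 1 read against 2465 and 2467. The part of this in the differences of weakly expressed members was not tested. None passed 1 unit in either direction, where 7.16% of 12772 genes tested did, and 5.16% were lower by that much. Mcl1 was at -0.56, Bcl2l11 at -0.54, Bid at -0.43 and Casp6 at -0.36, and 12.7%, 13.3%, 17.8% and 20.7% of genes tested were at least as far below 0. Bcl2 was at -0.25, Bax at -0.19, Bcl2l1 at -0.01 and Bad at 0.13. The median of the 8 was -0.30, against 0.04 over all genes tested. The ratio interval lay below 1 for 6 genes (all but Bcl2l1 and Bad), against 32.6% of genes tested. Of genes with 50 to 400 reads in PS19, 36.4% had such an interval. The interval lay above 1 for 0 members, against 39.0% of genes tested. Bcl2l11 and Casp6 reached an FPKM of 1 in PS19 alone, so the filter set their direction here. Both are also among the 7 lower genes and in the median of the 8. Without them, the intervals below 1 were those of Bcl2, Mcl1, Bax and Bid. A ratio of at least 2 was seen for 3.63% of genes tested and for no member. Bcl2l11 was past 2-fold lower with a pseudocount of 0.1 (-1.09), after rescaling to TPM (-1.11) and as a read ratio (-1.24 on the log2 scale).

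Between PS19 Zbp1+/- and WT, again 0 genes passed 1 unit, against 1.07% of 12436 genes higher and 2.28% lower. Only 6 members were among the genes tested here, since Bcl2l11 and Casp6 did not reach an FPKM of 1 in either library. Differences of the 8 ran from -0.33 (Bax) to 0.10 (Bcl2l1), and the median of the 6 tested was -0.08, against 0.01 over all genes tested. The ratio interval lay below 1 for Mcl1, Bax and Bid (3 of the 6, against 31.3% of genes tested) and above 1 for Bcl2l1 (1 of the 6, against 35.3%). It also lay below 1 for Bcl2l11, outside the genes tested. No member had a ratio of at least 2 or at most 0.5, against 2.61% and 4.81%. Bcl2l11 and Casp6 entered the first 2 comparisons only through PS19, where each was highest, so their direction there was set by the filter.

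**Figure D3:**
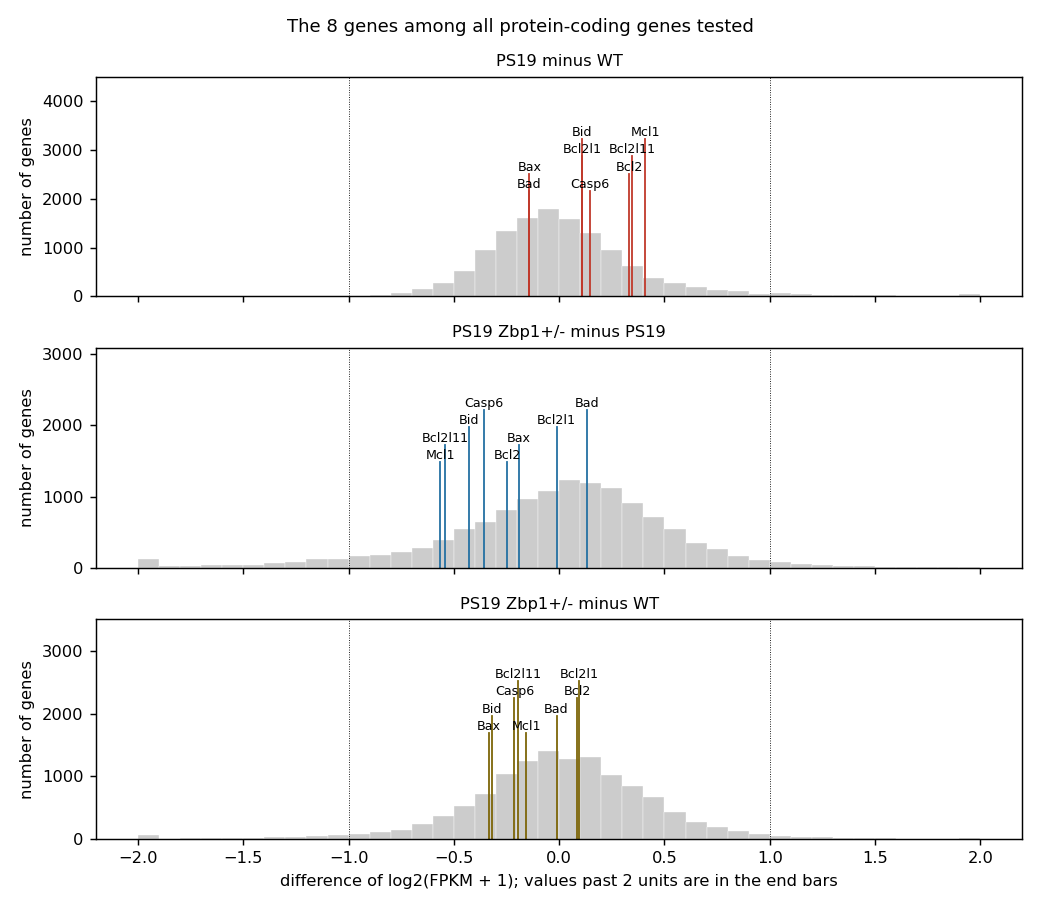
Histograms of the difference of log2(FPKM + 1) over all protein-coding genes tested (vertical axis, number of genes per 0.1 unit) in the 3 comparisons, with coloured lines at the 8 genes and dotted lines at 1 unit either side of 0. All 8 genes lie inside the dotted lines in each panel, and in the middle panel 7 of them lie below 0.

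In the order of levels, PS19 was the highest library for 6 of the 8 genes, while it was the highest for 30.6% of the 12875 protein-coding genes reaching an FPKM of 1 in any of the 3. Mcl1, Bcl2l11, Bid and Casp6 had PS19 highest and PS19 Zbp1+/- lowest (4 of 8, against 20.4%). Bcl2l11 and Casp6 reached an FPKM of 1 in PS19 alone, which fixes PS19 as their highest library. Without them, PS19 was highest for 4 of 6 genes, and 2 of 6 also had PS19 Zbp1+/- lowest. Those 4 were the survival genes Bcl2, Bcl2l1 and Mcl1 and the BH3-only gene Bid. Both comparisons with PS19 share that library. The astrocyte and oligodendrocyte markers given above had PS19 highest as well, as had 5 of the 6 microglia markers. The part of these markers in this order was not tested.

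The other genes of the pathway were taken as a list of 38, of which 30 reached an FPKM of 1 in PS19 or WT. Between PS19 and WT, 1 of these 30 was at least 1 unit higher (2.20% of all genes tested were) and 0 were lower, and 15 lay on each side of 0, with a median of 0.01 against -0.03 over all genes tested. The count of higher genes was 2 with a pseudocount of 0.1, 2 as read ratios with reads below 3 set to 3, and 5 under TPM. Leaving out genes with at most 3 reads, the read-ratio count was 1. Of all genes tested, 4.57% had a ratio of at least 2. TPM moved the median of all genes to 0.11, and shares over all genes under TPM or that pseudocount are not given here. The gene past 1 unit was Bcl2a1a, which encodes the survival protein A1 of white blood cells, at 1, 17 and 3 reads. Bcl2a1a reached an FPKM of 1 in PS19 alone, so the filter set its direction in both comparisons with PS19. It differed by 1.04 in PS19 over WT, and it has near-identical copies (Bcl2a1b at 1, 9 and 6 reads, Bcl2a1d at 0, 10 and 0), between which reads may be split. Between PS19 Zbp1+/- and PS19, 1 of 29 genes was at least 1 unit lower (5.16% of all genes tested were) and 0 were higher, with a median of -0.04 against 0.04. The count of lower genes was 4 with a pseudocount of 0.1, 5 as read ratios with reads below 3 set to 3, and 7 under TPM. Leaving out genes with at most 3 reads, the read-ratio count was 4. Of all genes tested, 9.72% had a ratio of at most 0.5. TPM moved the median of all genes to -0.25. Some of the genes counted reached an FPKM of 1 in PS19 alone, among them Casp8 and Pmaip1. The gene past 1 unit was Casp8, the initiator that cleaves Bid and restrains necroptosis, at 42, 114 and 18 reads and a difference of -1.24. PS19 was at 2.71 times WT (1.89 to 3.96), and PS19 Zbp1+/- was at 0.467 times WT (0.253 to 0.829). Casp8 reached an FPKM of 1 in PS19 alone (0.841, 2.28 and 0.393), so the filter set its direction in both comparisons with PS19. Between PS19 Zbp1+/- and WT, 0 of 26 genes passed 1 unit, and the median was -0.03 against 0.01.

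Of the other effectors, Bak1 had its highest level in PS19 and Bok in WT. Bak1, which acts beside Bax at the mitochondrial membrane, had FPKM values of 3.23, 3.89 and 2.60. Bok, a further pore former that is well expressed in brain, had 53.3, 44.8 and 29.7 and was the most abundant of the 3. Like Bax, Bok was highest in WT and lowest in PS19 Zbp1+/-, at 0.556 times WT there (0.512 to 0.604).

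The survival gene Bcl2l2, which encodes Bcl-w, had FPKM values of 24.0, 21.3 and 22.5, as abundant as Bcl2l1 in WT. Its ratio of PS19 to WT was 0.888 (0.831 to 0.950), on the other side of 1 from Bcl2, Bcl2l1 and Mcl1. The p53-induced BH3-only gene Bbc3 (Puma) was level at 5.38, 4.74 and 5.41. Pmaip1 (Noxa), a BH3-only partner of Mcl-1, had 40, 56 and 15 reads, and PS19 Zbp1+/- was at 0.293 times PS19 (0.154 to 0.525). Pmaip1 reached an FPKM of 1 in PS19 alone, so the filter set that direction.

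Downstream of the membrane, Apaf1, the scaffold of the apoptosome, had FPKM values of 2.77, 1.99 and 2.63, with PS19 lowest. Its ratio to WT was 0.716 in PS19 (0.617 to 0.831), and PS19 Zbp1+/- stood at 1.32 times PS19 (1.14 to 1.55). Casp9, the initiator it activates, was level at 5.20, 5.39 and 5.64. Xiap, the inhibitor that binds active caspases, was at 8.91, 9.51 and 8.23.

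**Figure D4:**
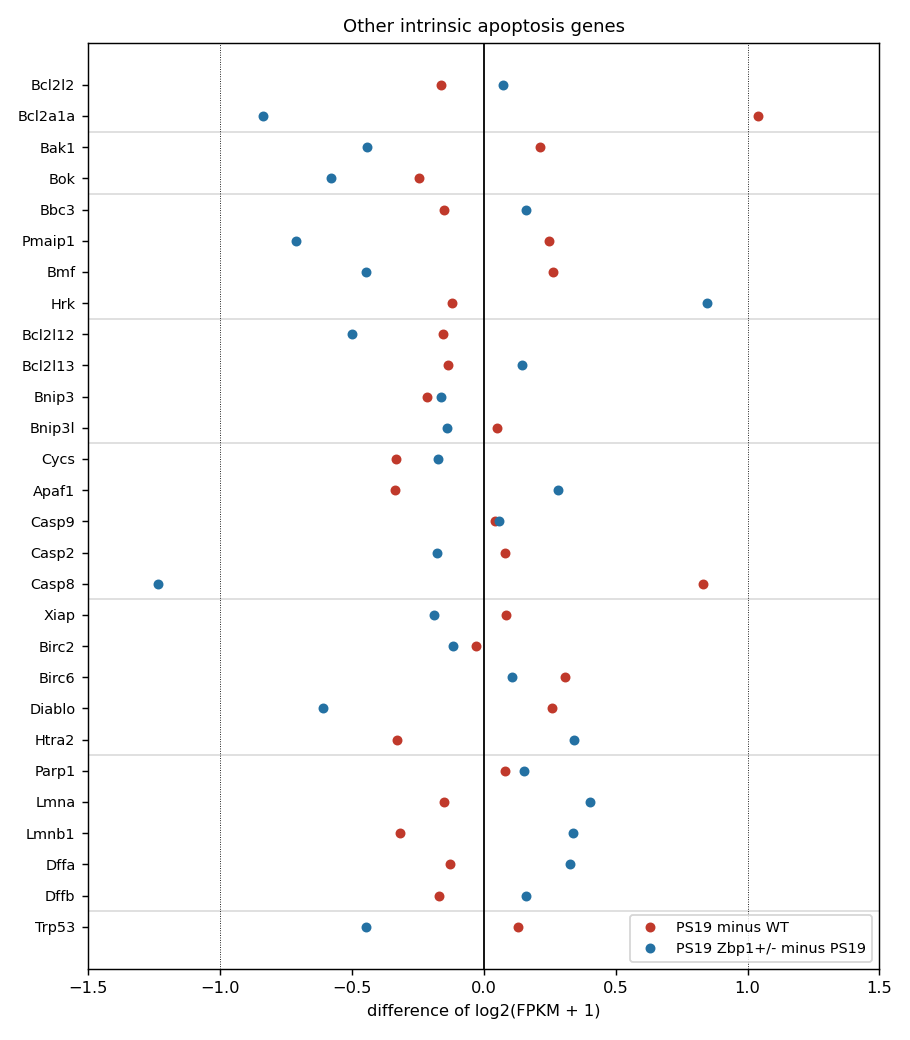
Difference of log2(FPKM + 1) (horizontal axis) for 28 of the other intrinsic apoptosis genes, each reaching an FPKM of 1 in at least one library, for PS19 minus WT (red) and PS19 Zbp1+/- minus PS19 (blue); grey lines separate roles and dotted lines mark 1 unit. Bcl2a1a lies past the line in red and Casp8 in blue, and the other points lie inside.

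The protein-coding genes most like each member over the 3 libraries, by Euclidean distance between centred log2(FPKM + 1) values, were Chd9 and Rgs6 for Bcl2, Slc7a14 and Ggact for Bcl2l1, and St18 and Coro6 for Mcl1. They were Bbip1 and P2ry12 for Bax, Prom1 and Phka1 for Bcl2l11, Mpv17l and Rnf217 for Bad, Cebpg and Acads for Bid, and Tinf2 and Dock11 for Casp6. The distances were at most 0.013, but many genes lay close. Within a distance of 0.1 there were between 219 genes (Mcl1) and 1106 genes (Bad) of 12875, so 3 libraries single out few patterns.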

How the data were processed

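Per the labels' protocols, hippocampal total RNA was extracted with TRIzol and made into libraries with an NEB Next Ultra kit. The submitters' processing notes list Trim Galore 0.6.5, STAR 2.5.3a and featureCounts 2.0.4 and the build mm39. The gene positions in the table equal those of GENCODE M21 (GRCm38) for 98.3% of 54409 shared gene IDs and for 7 of the 8 members (all but Bad), so positions are given as GRCm38. Strandedness and pooling are not given in the sources used here. The authors deposited FPKM values in 1 table with 1 column per library. FPKM times gene length was a whole multiple of 1 step for 100% of nonzero values (within 0.01 reads or a relative 1e-05), which gave the reads.

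The members and lists were chosen with earlier results of these data known. The difference of log2(FPKM + 1) was taken over protein-coding genes that reached an FPKM of 1 in either of the libraries compared, and 1 unit was the threshold. Read ratios used the library sizes implied by the steps (17253479, 17287957 and 15826984), with exact Clopper-Pearson 95% intervals, which cover counting error only. These sizes lie above the reads assigned to genes in WT and PS19 and below them in PS19 Zbp1+/- (17109734). The deposited values were thus not scaled by the total of assigned reads. Ratios are left out for genes with at most 3 reads in a library. In the alternative setting with read ratios, reads below 3 were set to 3 instead. The interval of the survival to Bax ratio came from the counting variance on the log scale. The genes named were the 8 members, Zbp1, the list genes past 1 unit, Bak1, Bok, Bcl2l2, Bbc3, Pmaip1, Apaf1, Casp9 and Xiap, and the 2 genes most like each member. Some genes of the lists are not reported here by name. Both the read recovery and the intervals were tested on simulated data. Another 10 settings were tried, with pseudocounts of 0.1 and 0.5, other filters, scalings and thresholds (1.5-fold and 4-fold). Calculations ran in scipy 1.17.1, pandas 2.3.3 and numpy 2.4.6 under Python 3.11.15, and plots in matplotlib 3.10.9.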

Additional observations from a re-analysis of the deposited data

How the results depend on the processing

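The count of members past the threshold was 0 in each direction and comparison under the settings reported. It became 1 lower gene (Bcl2l11) between PS19 Zbp1+/- and PS19 with a pseudocount of 0.1, after rescaling to TPM and with read ratios, and was 0 in the other comparisons under all 10 alternatives. Under the 5 settings that can alter a gene's own difference, 102 of 120 member differences moved by less than the counting interval's half-width and 6 changed sign, all under TPM or total-read scaling. These were Bad between PS19 Zbp1+/- and PS19 (-0.14 and -0.04), and Bcl2 (-0.02 and -0.01) and Bcl2l1 (-0.06 and -0.05) between PS19 Zbp1+/- and WT. TPM moved the median of all genes to 0.11 for PS19 minus WT, -0.25 for PS19 Zbp1+/- minus PS19 and -0.15 for PS19 Zbp1+/- minus WT, and the members' medians to 0.29, -0.68 and -0.39. With a mean FPKM of at least 5, which keeps Bcl2l1, Mcl1, Bax and Bad, the medians for the first 2 were -0.02 and -0.10. In the list of other genes, TPM gave 5 higher genes between PS19 and WT and 7 lower between PS19 Zbp1+/- and PS19. The shares of all genes past 1 unit under TPM are not given here. With Bcl2l2 added to the survival genes and Bak1 to Bax, an alternative chosen after seeing the data, the ratio became 3.02 (WT), 3.57 (PS19) and 3.72 (PS19 Zbp1+/-). Bok, a more abundant effector (FPKM 53.3, 44.8 and 29.7), is in neither ratio. No paired analysis was possible because each genotype has 1 library. Leaving out a library was not possible for the same reason. Counts of 52 to 165 reads limit Casp6 and Bcl2l11.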

Other observations

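A few pathway genes outside the 8 were singled out after their values were seen. Hrk, a BH3-only gene of neurons, had its most reads in PS19 Zbp1+/- (1089), against 680 for WT and 618 for PS19. That library stood at 1.93 times PS19 (exact Clopper-Pearson 95% interval 1.74 to 2.13) and 1.75 times WT (1.59 to 1.92). It was the BH3-only gene with the highest FPKM in PS19 Zbp1+/-, at 12.1 against 10.6 for Bad. With values ordered as WT, PS19 and PS19 Zbp1+/-, Birc3, an inhibitor of apoptosis that NF-kB induces, had 27, 79 and 17 reads, and PS19 was at 2.92 times WT (1.87 to 4.70). Diablo, which releases caspases from such inhibitors, had 125, 171 and 69 reads, and PS19 Zbp1+/- was at 0.441 times PS19 (0.328 to 0.586). Birc3 stayed below an FPKM of 1 in each library (0.312, 0.912 and 0.214), so it was outside the genes tested. Of genes tested, 4.57% had a PS19 to WT ratio of at least 2. A PS19 Zbp1+/- to PS19 ratio of at most 0.5 was seen for 9.72%.

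Of the 5 listed caspase substrates and nuclease genes, 4 were lowest in PS19, also singled out after their values were seen. Lmna, Lmnb1, Dffa and Dffb encode lamins, the nuclease inhibitor ICAD and the nuclease CAD. Their FPKM values in PS19 were 7.17, 2.28, 10.2 and 3.40, against 8.07, 3.09, 11.3 and 3.95 in WT and 9.79, 3.16, 13.1 and 3.91 in PS19 Zbp1+/-. The interval of the PS19 to WT ratio lay below 1 for Lmna (0.803 to 0.984) and Lmnb1 (0.577 to 0.945), and held 1 for Dffa (0.813 to 1.012) and Dffb (0.696 to 1.063). Parp1, the fifth gene of that group, was instead lowest in WT (20.6, against 21.8 for PS19 and 24.4 for PS19 Zbp1+/-). Among the 12875 protein-coding genes reaching an FPKM of 1 in any library, PS19 was the lowest for 37.7%.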
